A study of Mus musculus with 2 samples.

Results

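The genes described are those of RNA polymerase II and of the general transcription factors. They were chosen by symbol: Polr2 followed by a letter, Gtf2 followed by a letter, Taf followed by a digit, or Tbp, with at least 100 unique molecular identifiers (UMIs, tags that count single captured RNA molecules) over both libraries. Of 53 symbols that match, 51 reached that count, among 27998 gene identifiers of which 12859 did so. The study made 2 single-cell libraries of neural stem cells from the subventricular zone, the germinal layer along the lateral ventricles of the mouse brain. The young library came from C57BL/6 mice aged 2 months and the aged library from C57BL/6 mice aged 15 to 18 months. In both, tissue of 5 mice was pooled and the cells were held in a proliferation medium before capture, so each age is 1 pool, and age cannot be told apart from pool or culture.

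RNA polymerase II makes the messenger RNA of nuclear genes, and it cannot find a start site alone. TFIID, built of the TATA-binding protein Tbp and its associated factors (Tafs), binds the core promoter, and TFIIA and TFIIB settle it there. TFIIF brings the polymerase, TFIIE and TFIIH follow, and TFIIH opens the DNA and phosphorylates the tail of the largest subunit, Polr2a. A number of genes caught by the same names work elsewhere: Taf1a, Taf1b, Taf1c and Taf1d belong to SL1, the Tbp complex of polymerase I, Taf5l and Taf6l to the histone-modifying complex SAGA, Gtf2i and Gtf2ird1 to the TFII-I family of sequence-specific factors, and Taf15 to the FET family of RNA-binding proteins. The adult subventricular zone holds quiescent stem cells that resemble astrocytes beside dividing progenitors, and quiescent stem cells are known for a small output of RNA.

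After filters the young library held 4116 cells with 95234883 UMIs and the aged library 3938 cells with 99759488, with 4 barcodes occurring in both libraries, 2 of them in kept cells. Cells were clustered without the 51 genes, and 3 classes were named from marker lists. Cycling cells (2458 young, 2296 aged) had markers of S phase or of G2/M. Quiescent-like cells (619 young, 652 aged) had 15 of 24 astrocyte and quiescent stem cell markers, in cluster 3 and in cluster 10. Cluster 3 held 613 young and 216 aged cells, but cluster 10 held 6 young and 436 aged cells, so the class has a different make-up in each library. Stress response cells (118 young, 231 aged) had 20 of 22 markers of the integrated stress response. Mki67, the proliferation marker, stood at 646 and 697 CPM (counts per 1000000 UMIs) in young and aged cycling cells, at 34.8 and 34.0 in quiescent-like cells and at 41.5 and 25.7 in stress response cells.

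All 51 genes were detected in both libraries, from Taf9 at 0.599 CPM (young) and 0.692 CPM (aged) to Polr2f at 337 and 341. Counts of UMIs near the 3′ end are not a measure per length, so levels are compared between cells and not between genes. Together the 51 genes took 3361 CPM of the young and 3312 CPM of the aged library. A mean of 5 CPM over the libraries was reached by 47 of them. The other 4 are Gtf2ird2 with 717 UMIs, Taf1c with 960, Taf8 with 768 and Taf9 with 128. Of Taf9's exonic bases 73.8% also belong to Ak6 on the same strand, so its count is uncertain. Taf10 shares 45.9% of its exonic bases with Ilk on the opposite strand, and the sources used here do not say whether counting used strand. Exons of Taf1d overlap small nucleolar RNA genes on the same strand.

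Promoter windows of 250 bases before the start of RefSeq transcripts (GRCm38.p6) were matched for 44 of the 51 genes, 55 windows in all. Windows of Gtf2e2, Polr2d, Polr2g, Polr2k, Taf2, Taf4b and Taf7 were not used here. For 43 of the 55 windows the first bases after the start were found in an annotated transcript of the same gene. The windows of 3 genes are shown, picked once their values were known. Polr2a and Taf13 lie on opposite sides of the class comparison, and Taf5 differed most. Capitals mark TATAAA (the letters of the TATA box, the site that Tbp binds), CCGGAA (the core of ETS factor sites) and TTTCCCGC or TTTGGCGC (letters of E2F sites), each searched on both strands. The Polr2a window is chr11:69758634-69758883 on the minus strand, that of Taf13 is chr3:108571449-108571698 on the plus strand, and that of Taf5 is chr19:47067498-47067747 on the plus strand.
Polr2a: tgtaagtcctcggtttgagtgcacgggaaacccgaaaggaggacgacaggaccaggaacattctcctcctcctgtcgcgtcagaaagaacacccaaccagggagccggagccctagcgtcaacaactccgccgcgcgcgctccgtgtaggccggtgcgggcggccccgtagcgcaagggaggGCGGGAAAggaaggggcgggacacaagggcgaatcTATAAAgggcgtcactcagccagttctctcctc
Taf13: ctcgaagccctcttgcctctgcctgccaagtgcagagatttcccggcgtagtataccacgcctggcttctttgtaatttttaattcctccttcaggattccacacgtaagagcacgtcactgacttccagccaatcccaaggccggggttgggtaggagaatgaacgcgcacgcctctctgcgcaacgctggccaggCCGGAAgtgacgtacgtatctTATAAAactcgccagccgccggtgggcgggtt
Taf5: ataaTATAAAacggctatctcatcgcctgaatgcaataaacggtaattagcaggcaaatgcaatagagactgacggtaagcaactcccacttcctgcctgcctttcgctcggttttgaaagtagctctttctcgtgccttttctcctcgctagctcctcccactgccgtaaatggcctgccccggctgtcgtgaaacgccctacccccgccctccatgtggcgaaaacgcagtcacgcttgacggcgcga

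In these windows Polr2a has TATAAA on its own strand with the first base 33 bases before the start, and Taf13 has it 32 bases before the start. Among all 55 windows these were the 2 with TATAAA on the gene's own strand and its first base between 36 and 24 bases before the start, against 0.783% of 9705 windows of genes at 5 CPM or more and 1.80% of all 32851 windows. Taf5 has TATAAA too, but 246 bases before the start. Polr2a also has an E2F match on the other strand, 68 bases before the start, and Taf13 an ETS match 53 bases before it. TATAAA at any place in the window occurred in 14.5% of the 55 windows, 5.91% of windows of expressed genes and 12.4% of all windows. CCGGAA occurred in 34.5% of the 55 windows and 23.2% of windows of expressed genes, and in 3952 of all 32851. The E2F letters occurred in 5.45% of the 55, 2.59% of those of expressed genes and 1.30% of all, and the genes that hold them are Polr2a, Polr2c and Polr2j. GGGCGG, the letters of the GC box, occurred in 60.0%, 60.1% and 32.7%, and CCAAT in 32.7%, 35.5% and 33.8%. AAGATGGC, the letters of YY1 sites, occurred in 1.82%, 2.12% and 1.56%. The median window held 20 CpG pairs, against 17 for expressed genes and 6 for all. TTTCCCGC can overlap a GC box match, and a match of letters is a description of the sequence alone.

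The first comparison asks whether the genes differed between the young and the aged library over all kept cells. With 1 library per age no test is possible, so a gene is called higher or lower here when its log2 ratio, on CPM plus 1, is at least 0.32 from 0 and the 95% interval of its ratio, which covers counting error only, leaves out 1. By this rule 0 of the 47 genes were called in either direction, where 8.38% of all 9738 genes at 5 CPM or more were. The median log2 ratio of aged to young was 0.00 for the 47 genes and 0.01 for all genes. Polr2a, the catalytic subunit, was at 85.3 CPM in the young and 83.5 CPM in the aged library, a ratio of 0.978 (0.949 to 1.01). Tbp was at 10.8 CPM in both, and Gtf2b, the gene of TFIIB, at 51.0 and 51.2. The intervals of all 3 ratios include 1.

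Taf1d, the SL1 subunit, had the highest log2 ratio at 0.27, from 53.9 CPM in the young to 65.1 CPM in the aged library. Next stood Polr2l, a small subunit shared by all 3 polymerases, at 29.4 and 35.3 CPM, Taf5 at 19.2 and 23.0, and Taf9b at 9.67 and 11.2. At the other end Taf13, a histone-fold subunit of TFIID, was at 51.8 and 44.7 CPM and Taf6l at 28.0 and 24.1, both with a log2 ratio of -0.21. Gtf2h1, a core subunit of TFIIH, was at 40.9 and 35.8 CPM, and Polr2h at 64.1 and 57.2. The counting intervals of all 8 leave out 1, and the 8 ratios lie inside the limit of 0.32.

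**Figure D1:**
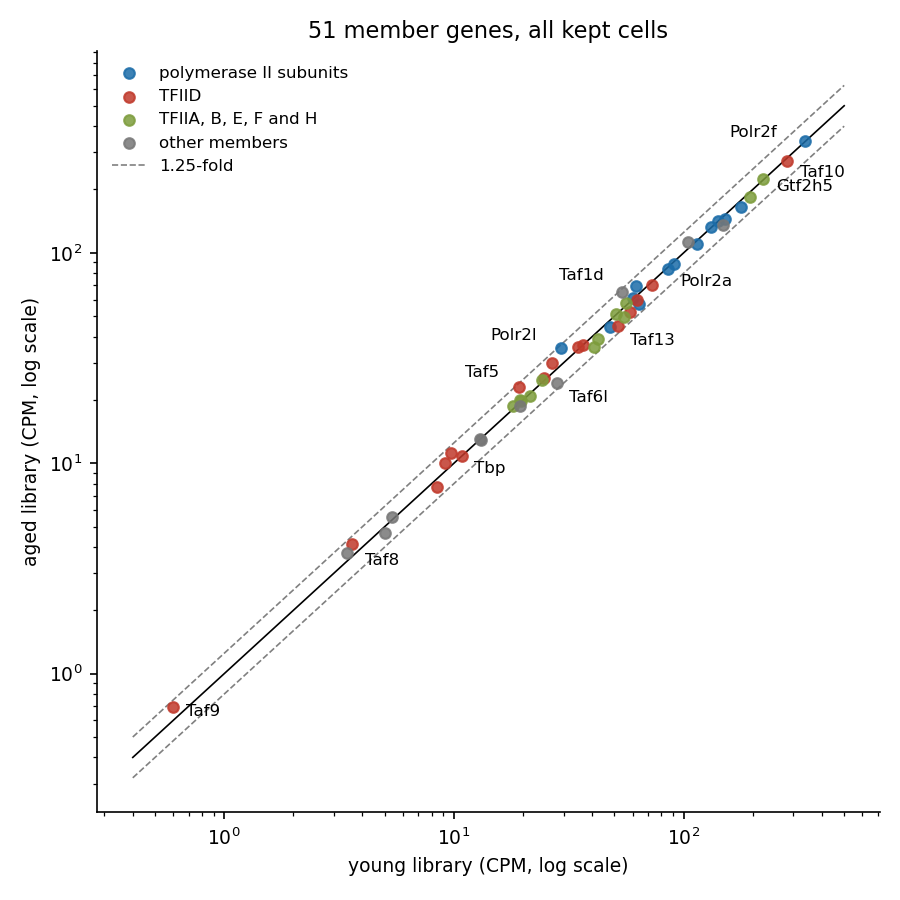
Level of each of the 51 genes in all kept cells of the young library (x axis) and the aged library (y axis), in CPM on log scales; colours give the complex, the solid line equality and the dashed lines a log2 difference of 0.32. The points lie along the solid line from Taf9 at 0.599 CPM to Polr2f at 337 CPM in the young library, and 0 of the 47 genes tested are called.

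The second comparison sets quiescent-like against cycling cells inside each library, and a gene is called when both libraries give the same direction. Here 21 of the 47 genes were lower in quiescent-like cells, 44.7%, against 26.6% of all genes, and 1 was higher, against 17.5% of all genes. The median log2 ratio was -0.31 for the 47 genes and -0.08 for all genes. In each library 42 of the 47, 89.4%, lay below 0, against 51.5% of all genes. Among the 3361 genes with at least the median level of the 47 genes, 28.4% were lower and 15.2% higher. Summed over the 51 genes, cycling cells held 3510 CPM in the young and 3463 CPM in the aged library, and quiescent-like cells 2822 and 2767. As UMIs per cell these were 92.3 and 98.8 in cycling and 75.7 and 80.9 in quiescent-like cells, whose median depth (26553 and 28105 UMIs) was not below that of cycling cells (25294 and 26937).

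Other measures moved with the class. Quiescent-like cells had a median of 12.4% and 12.5% mitochondrial UMIs, against 8.70% and 8.65% in cycling cells. Ribosomal protein genes took 14.4% of UMIs in cycling cells of both libraries, 12.5% in aged quiescent-like cells and slightly less in young ones. With mitochondrial and ribosomal protein genes left out of the total, 19 genes were lower and 1 higher, a count given without the share of all genes. A limit of 10% mitochondrial UMIs in place of 20% kept 19.2% and 18.3% of the quiescent-like cells. In the cells under that limit, clustered anew, 10 genes were lower and 0 higher, with a median of -0.07, while 14.7% of all genes were lower. With the clusters kept as they were, 14 were lower and 1 higher, the median was -0.21 and 16.8% of all genes were lower. While 119 quiescent-like cells of each library passed that limit, the class clustered anew held 382 young and 268 aged cells, so most of the cells compared there had not been in the class before. Markers of other cell types were present in both classes. The 9 markers of oligodendrocyte precursors summed to 1681 CPM in cycling and 1469 in quiescent-like young cells and to 1369 and 1008 in aged cells. The 7 markers of mature neurons summed to 431 and 405 CPM in young and 423 and 385 in aged cells, and the 12 of neuroblasts to 104 and 97.0 in young and 87.2 and 59.9 in aged cells. Few genes carry these sums: 1 (young) or 2 (aged) of the neuron markers reached 10 CPM, and 1 or 2 of the neuroblast markers. The 6 ependymal markers were higher in quiescent-like cells, at 27.3 CPM against 9.51 in young and 26.4 against 8.06 in aged cells. The 6 pericyte markers, at 10.7 against 3.14 and 6.50 against 2.00 CPM, and the 6 endothelial markers, at 9.70 against 4.66 and 12.3 against 5.47 CPM, were higher there too. Of the pericyte and endothelial markers 0 reached 10 CPM in either class, and of the ependymal markers 1 did, in quiescent-like cells alone. The 7 oligodendrocyte markers summed to between 56.4 and 78.4 CPM, and the 8 microglial markers to between 16.5 and 26.9 CPM, with 3 to 6 of these 8 at 0. The fibroblast markers summed to at most 0.577 CPM and the blood markers to at most 0.0602. The part of these cells and measures in the results was not tested.

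Of the 13 Polr2 genes, 6 were lower in quiescent-like cells and 0 higher. Polr2a went from 94.9 CPM in cycling to 58.2 CPM in quiescent-like cells of the young library, and from 93.8 to 56.4 CPM in the aged library. The levels were 1.63-fold (1.52 to 1.74) and 1.66-fold (1.56 to 1.78) lower. Polr2b, the second largest subunit, which forms the active site with Polr2a, went from 65.9 to 39.9 CPM in the young and from 68.0 to 42.0 CPM in the aged library. Polr2f, one of the subunits that polymerases I, II and III share, went from 357 to 206 and from 362 to 223 CPM. Polr2c, whose product pairs with that of Polr2j in assembly of the enzyme, Polr2d, which forms the stalk with Polr2g, and Polr2j were the other genes called lower.

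Polr2g, the partner of Polr2d in the stalk, was not lower: it stood at 174 CPM in cycling and 191 CPM in quiescent-like young cells, and at 160 and 172 in aged cells. Polr2d went from 52.3 to 33.4 CPM and from 48.8 to 30.3 CPM. So the 2 stalk genes lay on opposite sides of 0, with log2 ratios of 0.12 and -0.65. Of the 5 subunits shared with polymerases I and III, 1 was lower, Polr2f, and of the 7 subunits of polymerase II alone, 5 were, a split made after the values were seen. Polr2m was placed in neither group. Of all genes 26.6% were lower, and groups of 5 and 7 genes are too small to tell apart from that share or from each other. Polr2l, one of the shared subunits, was at 28.5 and 30.5 CPM in young cycling and quiescent-like cells and at 35.3 and 36.6 CPM in aged ones.

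TFIID had 7 of its 14 tested genes lower and 1 higher, with a median of -0.45. Taf5, the WD40-repeat scaffold around which TFIID assembles, differed most of all 47 genes, at a log2 ratio of -2.02. It went from 24.5 CPM in cycling to 5.12 CPM in quiescent-like young cells and from 30.4 to 6.97 CPM in aged cells. These are 4.79-fold (3.85 to 6.04) and 4.35-fold (3.65 to 5.23) lower levels. In the aged library, where both quiescent-like clusters have many cells, Taf5 stood at 6.55 CPM in cluster 3 and at 7.17 CPM in cluster 10. Both clusters lay below every cycling cluster, whose lowest Taf5 level was 15.4 CPM in the young and 17.5 CPM in the aged library.

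Taf3, whose PHD finger reads trimethylated histone H3 at active promoters, went from 39.2 to 19.4 CPM in the young and from 40.9 to 20.9 CPM in the aged library. Taf4a, an older name of Taf4, a scaffold of the TFIID core, went from 10.8 to 5.18 and from 11.4 to 6.55 CPM. Taf1, the largest subunit, went from 81.2 to 46.3 and from 78.7 to 47.7 CPM, and Tbp itself went from 11.8 to 7.89 CPM in the young library and was 1.72-fold (1.43 to 2.08) lower in the aged one, at 6.97 CPM. All 4 were lower in both libraries with intervals that leave out 1. The call of Tbp was lost with cells thinned to 5000 UMIs and at 1.5-fold. Taf6 and Taf7 were lower too, with log2 ratios of -0.58 and -0.56. Taf10, a histone-fold subunit found in TFIID and SAGA, was not called, at 287 and 270 CPM in young and 278 and 258 CPM in aged cells.

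Taf13 was the single gene of the 47 called higher in quiescent-like cells. It stood at 46.5 CPM in cycling and 70.6 CPM in quiescent-like young cells, a ratio of 1.52 (1.42 to 1.63), and at 40.3 and 54.7 CPM in aged cells, a ratio of 1.36 (1.26 to 1.46). Taf11, the histone-fold partner of Taf13, went the other way without being called, at 66.3 and 50.9 CPM in young and 63.5 and 50.8 CPM in aged cells. Both aged quiescent-like clusters had Taf13 above cycling cells, at 51.7 CPM in cluster 3 and 56.1 CPM in cluster 10. The call of Taf13 was lost with the 10% mitochondrial limit and new clusters and with a limit of 1.5-fold.

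Among the factors TFIIA to TFIIH, 4 of 12 tested genes were lower and 0 higher, with a median of -0.28. That is 33.3% of them, against 26.6% of all genes. Gtf2a1, whose product is cut into the larger TFIIA subunits, went from 23.1 to 13.8 CPM in the young and from 22.4 to 14.2 CPM in the aged library. Gtf2a2, the small TFIIA subunit, went from 210 to 147 and from 197 to 144 CPM. Gtf2e2, a subunit of TFIIE, and Gtf2h2, a core subunit of TFIIH, were the others called lower. Their partners were not called: Gtf2e1, the other TFIIE subunit, had a log2 ratio of 0.01. The call of Gtf2e2 was lost under 3 of 13 alternatives: the 10% mitochondrial limit, cells thinned to 5000 UMIs and 1.5-fold. Its log2 ratio ranged from -0.48 to -0.01 under the alternatives. Gtf2b was just inside the limit, at 52.6 and 43.1 CPM in young and 53.5 and 43.6 CPM in aged cells. Gtf2h5, the smallest TFIIH subunit, was at 222 and 204 CPM and at 224 and 211 CPM.

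Of the genes that work outside this machinery, Taf1d was lower, from 61.2 to 33.8 CPM in the young and from 76.4 to 37.1 CPM in the aged library, and so were Taf15, Taf5l and Gtf2ird1. The calls of these 3 genes were lost under the 10% mitochondrial limit with new clusters, where the log2 ratios were -0.26, -0.04 and -0.04, and at 1.5-fold. Gtf2ird1 lost its call under 7 of 13 alternatives. Gtf2i was not called, with 147 and 145 CPM in young and 136 and 129 CPM in aged cells. Of 59 tested genes of related machinery outside the name rule, 18 were lower and 0 higher, with a median of -0.25. That is 30.5% lower, near the 26.6% of all genes. The lowest were Ctdspl2, a phosphatase of the small CTD phosphatase family, from 34.8 to 15.4 CPM in young and 40.6 to 17.9 CPM in aged cells, and Gpn3, a GTPase needed to bring polymerase II into the nucleus, from 33.3 to 17.0 and from 31.8 to 18.0 CPM. Lower genes were found among assembly factors and phosphatases (6 of 14), SAGA partners (4 of 14), Tbp regulators and relatives (3 of 7), polymerase I subunits (3 of 8) and polymerase III subunits (2 of 11). The remaining 5 TFIIH and kinase module genes gave 0.

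**Figure D2:**
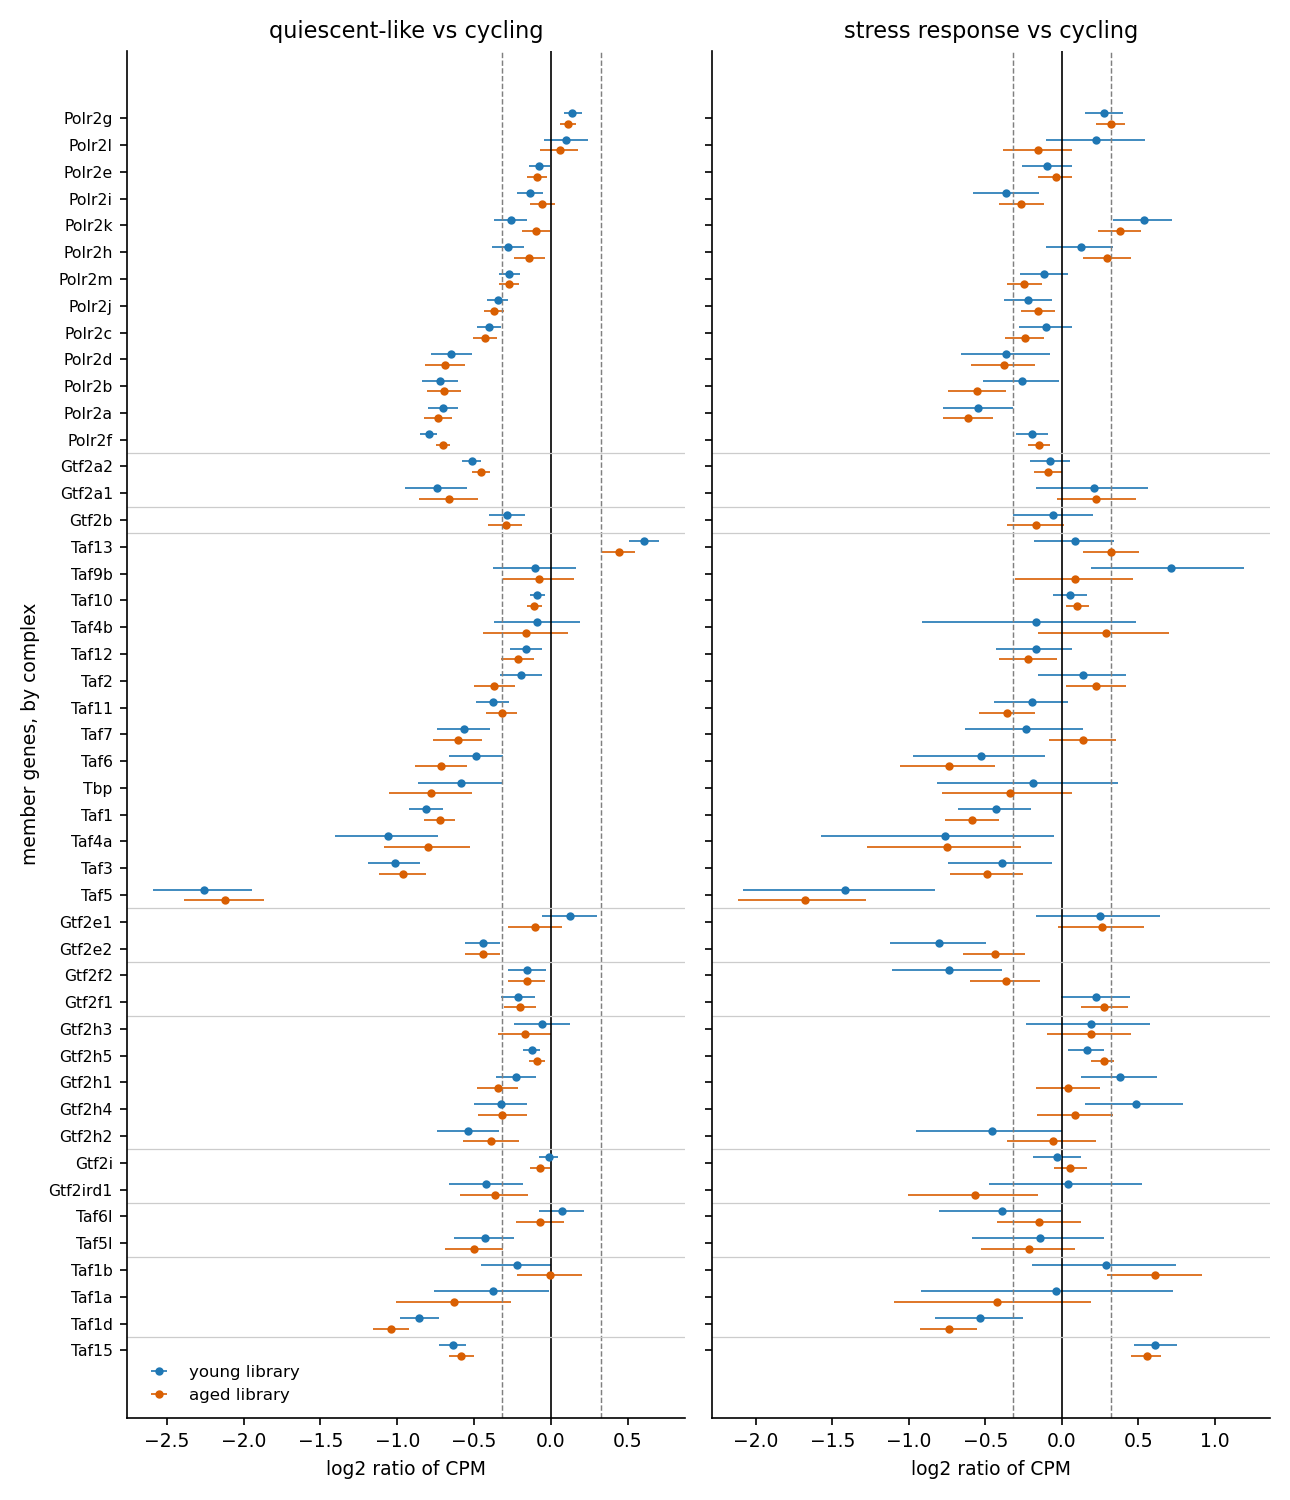
Log2 ratio of CPM of each of the 47 tested genes, quiescent-like against cycling cells (left) and stress response against cycling cells (right), in the young library (blue) and the aged library (orange); bars are 95% counting intervals, dashed lines a log2 ratio of 0.32 either way, and grey lines divide the complexes. On the left the 21 genes called lower lie beyond the lower dashed line in both libraries and Taf13 alone beyond the upper one. Calls use CPM plus 1, so Taf1a lies beyond the lower line in both libraries without being called. On the right Taf15 and Polr2k lie beyond the upper line.

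Against S-like cells alone 21 genes were lower and 1 higher (26.2% and 17.3% of all genes), and against G2/M-like cells alone 22 and 1 (26.8% and 19.1%). The genes called against S-like cells were those called against all cycling cells, whereas against G2/M-like cells Gtf2e2 and Gtf2ird1 were not called and Taf11, Taf1a and Taf2 were. Between the phases themselves 3 of the 47 genes were called, where 8.07% of all genes were higher and 5.71% lower in S-like cells. Taf1 was higher in S-like cells, at 88.3 CPM against 69.0 in young and 87.2 against 65.0 in aged cells. Taf5 was lower in S-like cells, at 22.0 against 28.9 and 26.4 against 36.8 CPM, and so was Taf7, whose product binds Taf1, at 24.2 against 34.9 and 28.4 against 36.3 CPM. The G2/M-like clusters were uneven: cluster 4 had 6 of 20 G2/M markers, and clusters 8 and 9 had 20. In young and aged cells Taf5 stood at 19.1 and 18.2 CPM in cluster 4 and 41.7 and 56.3 in cluster 9. Taf7 stood at 43.4 and 45.5 CPM in cluster 4 and 28.3 and 29.4 in cluster 8. In cluster 1, an S cluster, Taf5 stood at 28.7 and 36.1 CPM and Taf7 at 28.2 and 29.9. The S-like clusters were uneven too: Taf1 stood at 108 and 104 CPM in cluster 1 but at 55.4 and 52.8 in cluster 11. The level in cluster 11 lay below that of every G2/M-like cluster, the highest of which was cluster 9 at 85.9 and 76.6 CPM. In the aged library cluster 3 alone had 17 genes lower and 1 higher than cycling cells (27.4% and 17.3% of all genes), and cluster 10 alone had 27 lower and 1 higher (33.0% and 21.8%).

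**Figure D3:**
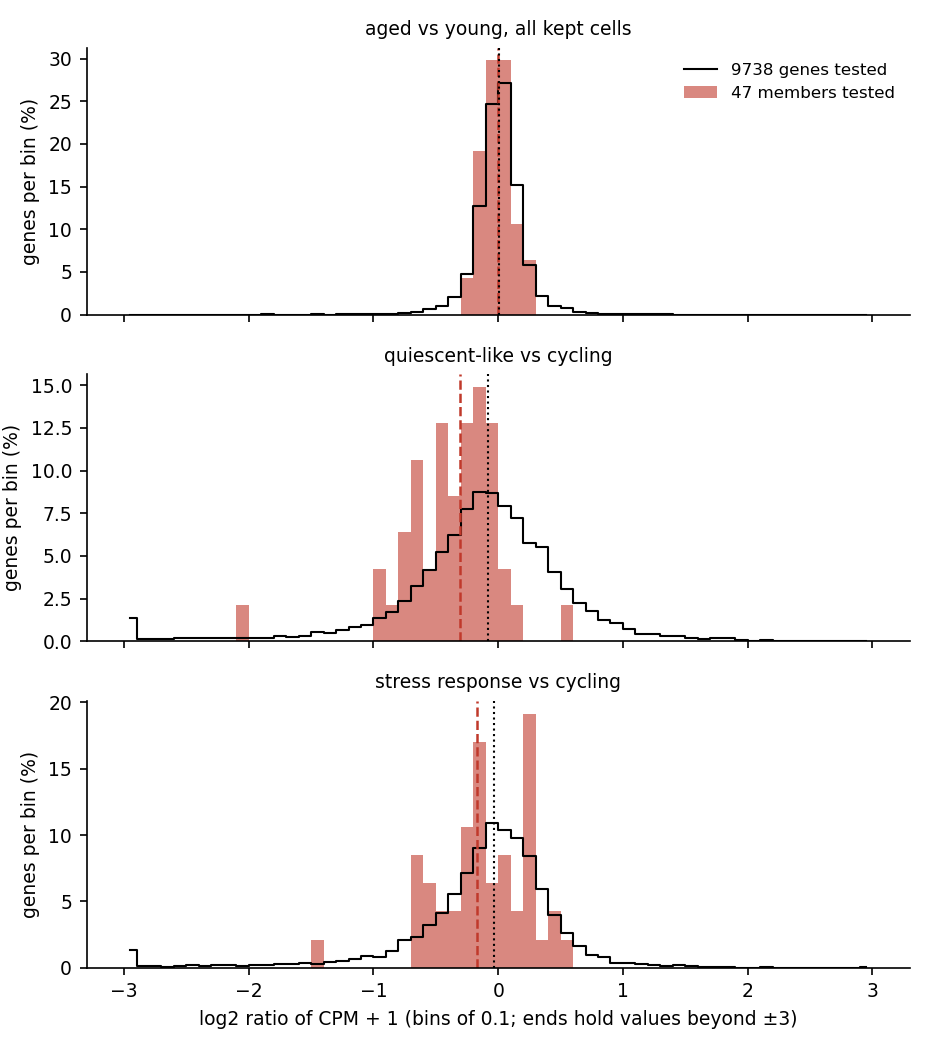
Share of genes per bin of log2 ratio (CPM plus 1) for the 47 tested genes (bars) and all 9738 genes (line), for aged against young, quiescent-like against cycling and stress response against cycling cells; the dashed and dotted vertical lines are the medians of the 47 and of all genes. In the middle panel the medians are -0.31 and -0.08, and Taf5 stands alone at -2.02.

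The third comparison sets stress response against cycling cells. Of the 47 genes 10 were lower, 21.3%, against 16.7% of all genes, and 2 were higher, 4.26%, against 10.3% of all genes. The share lower is close to that of all genes, and the medians were -0.17 and -0.03. These are medians of the mean of both libraries. In the young and the aged library taken singly the median of the 47 genes was -0.10 and -0.15. Summed over the 51 genes, stress response cells held 3402 CPM in the young and 3358 CPM in the aged library. These cells are fewer and shallower than the other classes, with a median of 20906 and 22388 UMIs. With each cell thinned to 5000 UMIs, which left out 0 to 20 cells of a class in either library, 2 genes were lower and 1 higher. With the 10% mitochondrial limit in the same clusters 4 were lower. The shares of all genes under these settings are not given here.

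Taf15 was the highest of the 47 genes in this comparison. It stood at 113 CPM in cycling and 173 CPM in stress response young cells, a ratio of 1.53 (1.39 to 1.69), and at 120 and 177 CPM in aged cells, a ratio of 1.47 (1.37 to 1.57). In quiescent-like cells it was lower than in cycling cells, at 72.6 and 80.3 CPM. That lower call ended under the 10% mitochondrial limit with new clusters, with a log2 ratio of -0.26, and at 1.5-fold. The call in stress response cells ended at 1.5-fold and at the coarser cluster resolution of 0.5, where the stress response cells share a cluster with cells of cluster 2 and the log2 ratio was -0.04.

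Polr2k, a small subunit shared by all 3 polymerases, was the other gene called higher. It stood at 63.1 CPM in cycling and 91.3 CPM in stress response young cells and at 69.2 and 90.2 CPM in aged cells. Its call was lost under 4 of 13 alternatives: the 10% mitochondrial limit with new clusters, at 0.51, cells thinned to an equal number of UMIs, 1.5-fold, and resolution 0.5, at 0.10. Taf1b, an SL1 subunit, and Taf9b had the next highest log2 ratios, 0.43 and 0.37, and were not called. Taf1b stood at 13.3 and 16.3 CPM in young and 12.4 and 18.9 CPM in aged cells. Taf9b stood at 8.99 and 14.8 CPM in young and 11.2 and 11.9 CPM in aged cells.

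Taf5 was again lowest, with a log2 ratio of -1.46. It stood at 9.17 CPM in young and 9.46 CPM in aged stress response cells, which are 2.68-fold (1.78 to 4.24) and 3.21-fold (2.43 to 4.34) below cycling cells. With cells thinned to 5000 UMIs its log2 ratio was -0.84 and the call was lost. Taf4a, Taf1d and Gtf2e2 followed, with log2 ratios of -0.68, -0.62 and -0.61. Taf4a rested on 16 UMIs in young stress response cells, and its call was lost under the 10% mitochondrial limit and with thinned cells. Polr2a was lower as well, at 65.0 CPM in young and 61.3 CPM in aged cells. Of the 10 lower genes 9 were lower in quiescent-like cells too: Gtf2e2, Polr2a, Polr2d, Taf1, Taf1d, Taf3, Taf4a, Taf5 and Taf6. Both comparisons use the same cycling cells, and the overlap among all genes is not given, so the overlap of 9 cannot be read as a trait of these genes. Gtf2e2 lost its call under 3 of 13 alternatives in quiescent-like cells and under 2 of 13 in stress response cells. In stress response cells Taf1, Taf1d and Taf6 also lost theirs under 2 of 13, Taf3 under 4 of 13 and Polr2a under 1 of 13. Gtf2f2, the small subunit of TFIIF, was the lower gene that was not called in quiescent-like cells, at 44.6 and 26.7 CPM in cycling and stress response young cells and 41.0 and 31.8 CPM in aged cells.

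Tbp in stress response cells was at 10.4 CPM in young and 9.46 in aged cells and was not called, nor were Gtf2b, Taf10, Gtf2h5 and Gtf2i. The 12 tested genes of TFIIA to TFIIH had a median of 0.19, with 2 lower and 0 higher. Polr2 genes gave 2 lower and 1 higher of 13, and TFIID genes 5 lower and 0 higher of 14. Against S-like cells alone 9 genes were lower and 2 higher in stress response cells (17.3% and 10.3% of all genes), with Taf4a not called. Against G2/M-like cells alone 8 were lower and 2 higher (15.8% and 11.2%), where Gtf2e2, Gtf2f2, Taf1 and Taf3 were not called and Polr2b and Taf11 were. In stress response cells the oligodendrocyte precursor markers summed to 1695 and 1261 CPM, those of mature neurons to 489 and 478 and those of neuroblasts to 116 and 126, and their part in these values was not tested. Of the neuron markers 1 (young) or 2 (aged) reached 10 CPM there, and of the neuroblast markers 2. Set directly against stress response cells, quiescent-like cells had 11 of the 47 genes lower and 0 higher (15.5% and 13.4% of all genes). Of the 59 related genes outside the rule, 9 were lower than in cycling cells and 4 higher, which is 15.3% and 6.78%, against 16.7% and 10.3% of all genes. The highest were Rpap2, a phosphatase of the polymerase tail, from 8.37 to 19.1 CPM in young and 7.41 to 12.7 CPM in aged cells, and Tbpl1, a relative of Tbp, from 26.7 to 40.3 and from 24.6 to 41.8 CPM. Tbpl1 was lower in quiescent-like cells, at 15.3 and 16.6 CPM. The lowest were Gpn3 and Sgf29, a SAGA subunit that reads methylated histone H3.

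Across the 10 clusters with at least 50 cells of each library and adequate depth, the highest level of a gene was a median of 1.54 times its lowest, and 37 of the 47 genes stayed under 2-fold. Taf5 had the widest range, 8.46-fold, from a mean of 5.80 CPM in cluster 3 to 49.0 CPM in cluster 9, a G2/M cluster. Polr2a also ran from cluster 3, at 60.0 CPM, to cluster 9, at 121 CPM. Cluster 3 had the lowest level of 21 of the 47 genes and the highest of 1, Taf13. Cluster 12, the stress response cells, had the highest level of 9 genes and the lowest of 5. These places rest on the mean of both libraries, and 25 of the 47 genes had the same highest cluster in each library. The same counts over all genes are not given, so they cannot be read as a trait of these genes. Cluster 2, with 3 of 9 oligodendrocyte precursor markers and Mki67 at 48.3 CPM in young and 35.6 CPM in aged cells, had 9 genes lower than cycling cells and 0 higher (16.0% and 12.1% of all genes), Taf5 among them at 9.81 CPM in young and 9.95 CPM in aged cells.

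**Figure D4:**
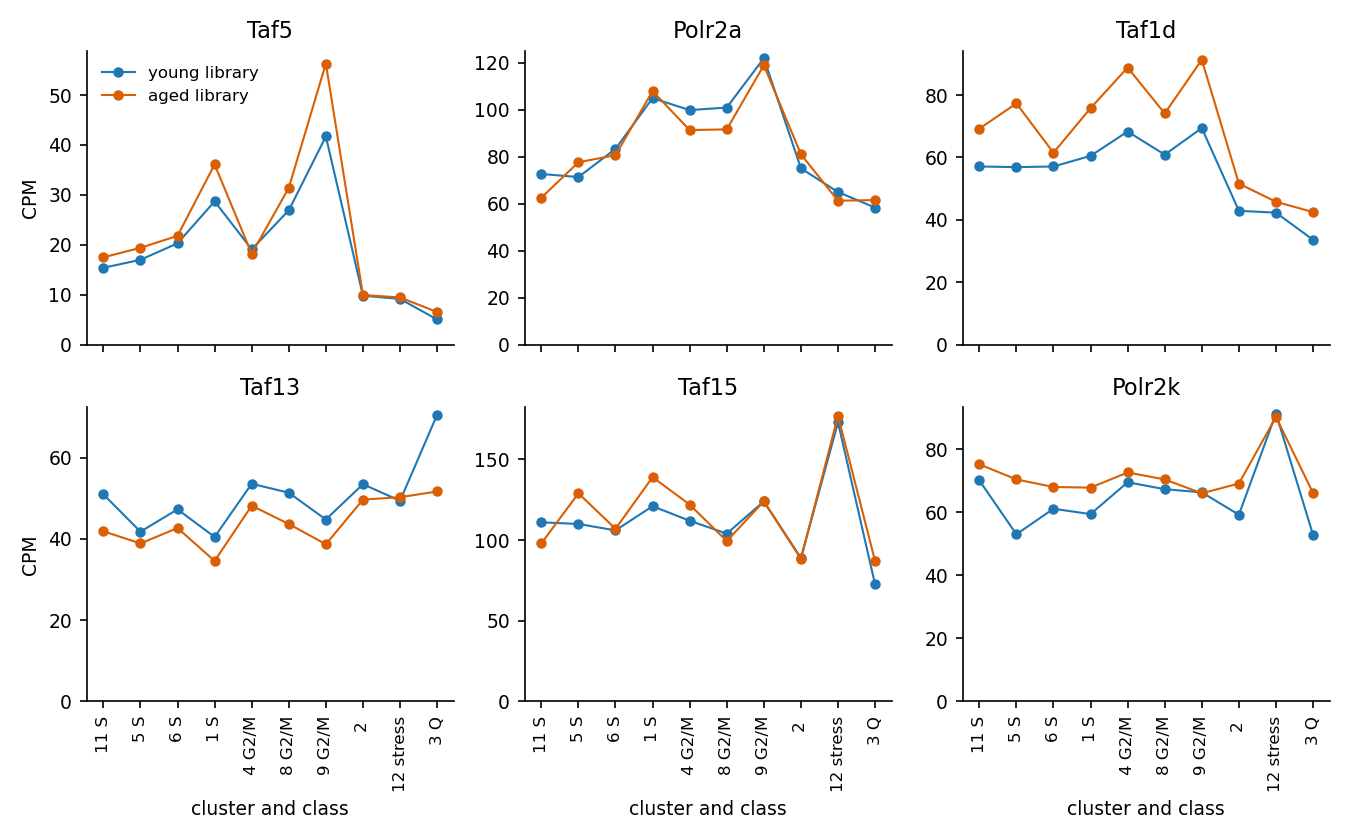
CPM of Taf5, Polr2a, Taf1d, Taf13, Taf15 and Polr2k in 10 clusters of the young (blue) and aged (orange) library; S and G2/M mark cycling clusters, Q the quiescent-like cluster 3, and lines only join the points of a library. Taf5 peaks in cluster 9 at 41.7 and 56.3 CPM, Taf13 is highest in cluster 3, and Taf15 and Polr2k are highest in the stress response cluster 12.

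Inside the classes few of the 47 genes were called between the libraries. In cycling cells 0 of the 47 genes were called between aged and young (8.30% of all genes in either direction). Taf1d was just under the limit there, at 61.2 CPM in young and 76.4 CPM in aged cells. Polr2l, at 28.5 and 35.3 CPM, and Taf5, at 24.5 and 30.4 CPM, were near it. Of the 47 genes 23 lay above 0 and 24 below. In quiescent-like cells 3 genes were called between the libraries, where 16.7% of all genes were: Taf5 was higher in the aged library, and Taf13 and Taf6l were lower. Taf13 stood at 70.6 CPM in young and 54.7 CPM in aged quiescent-like cells, and Taf6l at 30.1 and 23.4 CPM. In cluster 3 alone, which has cells of both libraries, Taf13 and Taf6l were lower and Taf1d higher (8.43% and 9.61% of all genes), and Taf5 was at 5.05 and 6.55 CPM without being called. In stress response cells 2 of the 47 genes were called, against 11.3% of all genes: Taf7 was higher, at 23.9 CPM in young and 34.6 CPM in aged cells, and Gtf2h1 lower, at 54.2 and 37.8 CPM.

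Taf4a, Taf5, Taf6 and Taf9 each have a paralog among the 51 genes, and the share of a pair's UMIs that falls on the paralog shows how a pair shifts between cells, though not the ratio of molecules. Taf5l took 46.2% (44.4 to 48.0, exact 95% interval) of the Taf5 and Taf5l UMIs in young cycling cells and 40.4% (38.8 to 42.1) in aged ones. In quiescent-like cells it took 75.3% (70.4 to 79.8) and 67.6% (62.9 to 72.1), and in stress response cells 67.6% (55.5 to 78.2) and 65.3% (56.9 to 73.0). Taf5l itself was lower in quiescent-like cells, at 15.6 and 14.6 CPM against 21.1 and 20.6. Its call was lost under the 10% mitochondrial limit with new clusters, at -0.04, in cells thinned to an equal number of UMIs, at -0.31, and at 1.5-fold. Under that limit Taf5l took 64.0% and 60.8% of the pair in quiescent-like cells and 44.0% and 37.6% in cycling cells.

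Taf4b, a variant known from germ cells, took 44.1% and 40.9% of its pair in young and aged cycling cells and 60.7% and 51.9% in quiescent-like cells. Taf6l took 51.6% and 46.2% in cycling and 61.1% and 57.2% in quiescent-like cells. The intervals of these classes do not overlap within either library. Taf9b took 92.8% and 94.0% of its pair in cycling and 96.5% and 95.7% in quiescent-like cells, a pair in which the count of Taf9 is uncertain. Gtf2ird1 took 8.62% of its UMIs together with Gtf2i in young cycling cells (8.09 to 9.18) and 6.65% (5.72 to 7.68) in young quiescent-like cells. In aged cells it took 9.33% (8.76 to 9.92) and 7.75% (6.77 to 8.83), with intervals that overlap.

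**Figure D5:**
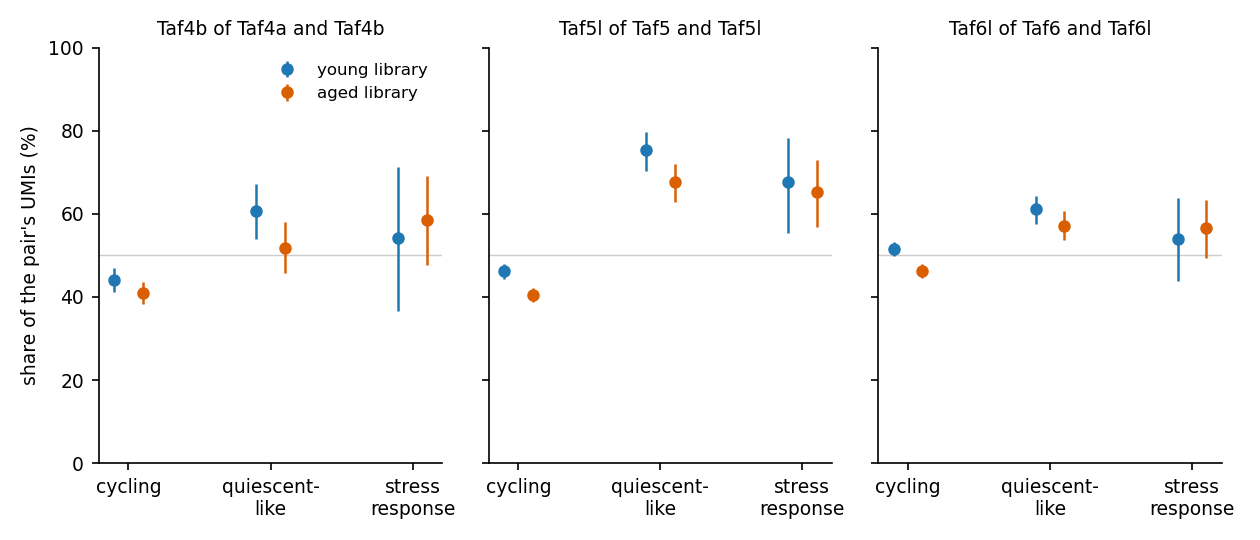
Share of the UMIs of each pair that falls on Taf4b, Taf5l or Taf6l in cycling, quiescent-like and stress response cells of the young (blue) and aged (orange) library, with exact 95% intervals that cover counting error only. In quiescent-like cells Taf5l reaches 75.3% and 67.6% of its pair, against 46.2% and 40.4% in cycling cells.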

How the data were processed

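The authors deposited raw UMI counts per gene and barcode from 10x Genomics 3′ version 3 libraries. Cell Ranger 3.0.2 and mm10 are named in the submitters' processing notes, and the sources used here name no annotation for the counting. Cells were kept with at least 1000 genes and at most 20% mitochondrial UMIs. Scrublet (scanpy 1.11.5) called 6 young and 3 aged cells, 0.146% and 0.0761%, so doublets were largely not detected, and those cells were removed. Cells of both libraries were clustered together without the 51 genes on 2000 variable genes, 30 components and 20 neighbours (Leiden resolution 1, leidenalg 0.10.2). A cluster was named when at least 3 markers of a type stood at 10 CPM and 1.5-fold above the other cells. Clusters of median depth under 1/3 of their library's were left unnamed.

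Counts were summed per library and class and given as CPM. Intervals are exact Poisson, conditional binomial or Clopper-Pearson at 95% and cover counting error only (scipy 1.17.1). Genes named are the 4 highest and 4 lowest per comparison, paralog pairs, Polr2a, Tbp, Gtf2b, Taf1, Taf10, Gtf2h5, Gtf2i, Taf15, genes under the level limit, genes called between classes, and up to 2 highest and 2 lowest related genes. Ak6, Ilk, Taf11 and Mki67 are outside this rule, and were picked once their values were known. Comparisons of single clusters, of the phases and between quiescent-like and stress response cells were added after the data were seen. The genes and lists were chosen with earlier results of these data known. The rule for calls was tested on counts simulated with Poisson error alone. Differences between pools, cells or clusters were not simulated. Gene positions and overlaps are from GENCODE vM21 on GRCm38.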

Additional observations from a re-analysis of the deposited data

How the results depend on the processing

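No paired analysis was possible because each age has 1 library, and no replicate could be left out. Values moved under the alternatives as follows, and the cause was not tested. The counts below are given without the share of all genes called. That share stands above only for genes lower in quiescent-like cells under the 10% mitochondrial limit. For the other counts, a change cannot show whether these genes or genes in general moved. With the 10% limit and new clusters, the count of genes lower in stress response cells is not given here. With a 10% mitochondrial limit and new clusters, quiescent-like against cycling cells gave 10 genes lower and 0 higher with a median of -0.07, stress response against cycling cells gave 1 higher, and aged against young gave 1 call over all cells, 1 in cycling and 0 in quiescent-like cells. With that limit and the clusters kept (added after seeing the data), aged against young gave 1 call over all cells and 1 in cycling cells, and stress response against cycling cells gave 4 lower. At 1.5-fold, quiescent-like cells gave 10 lower and 0 higher, stress response cells 2 lower and 0 higher, and aged against young 0 calls in both classes. With cells thinned to 5000 UMIs, stress response cells gave 2 lower and 1 higher, and aged against young 2 calls in cycling, 1 in quiescent-like and 1 in stress response cells. With each cell weighing the same, with the deepest 5% of cells left out, or at resolution 2, aged against young gave 1 call in cycling cells. Leaving out the deepest 5% also gave 1 call in quiescent-like cells, and the fold alone, without the interval, 5 in stress response cells. At resolution 0.5, stress response against cycling cells gave 0 higher, aged against young 1 call in stress response cells, and Taf15 reversed to -0.04.

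The calls of Taf5, Polr2a, Taf1, Taf3 and Taf1d as lower in quiescent-like cells were kept under all 13 alternatives tried for them, and that of Taf4a under all 12, whereas Gtf2ird1 lost its call under 7 of 13. Centred on the median of all genes, quiescent-like cells gave 18 lower and 1 higher, a count given without the share of all genes. Taf5 ranged from -2.03 to -1.24. In stress response cells 2508415 young and 5286747 aged UMIs limit what can be seen, and Taf9, with 128 UMIs in all, is too sparse to compare.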
